A study of Homo sapiens with 4 samples.

Results

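The genes described here are the histone genes of MV4;11 cells: 89 rows of the gene table named for the 4 histone gene clusters (HIST1 to HIST4), 9 replacement histone genes, and the genes SLBP and NPAT, 100 rows of 56638 in all. They were taken by symbol, without regard to their values. MV4;11 is an established line of human acute myeloid leukaemia with the KMT2A-AFF1 fusion gene and a tandem duplication within FLT3. RNA was sequenced from parental MV4;11 cells grown in RPMI, either with CU-T12-9, a synthetic compound that activates the TLR1/TLR2 receptor, at 1 µg/mL for 24 h (2 libraries), or with vehicle for 24 h (2 libraries). The labels call the vehicle DMSO in one field and PBS in another, and it is called DMSO here. Whether the 2 libraries of each group stem from different cultures is not stated in the labels, and p-values therefore reflect the spread among 4 libraries that may be technical.

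A dividing cell needs new histones while it copies its DNA. Most of that supply comes from the clustered, replication-dependent genes, which have no introns and whose mRNA ends not in a poly(A) tail but in a short stem-loop, bound by SLBP, the stem-loop binding protein. NPAT, a substrate of cyclin E and CDK2, switches these genes on at the start of S phase. Replacement histones are encoded elsewhere, mostly in genes with ordinary polyadenylated mRNA, and are put into chromatin outside S phase as well. Some clustered genes are known to give polyadenylated mRNA too, from a site beyond the stem-loop, above all in cells that stop dividing or differentiate.

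The stem-loop is shown first because mRNA that ends at it has no poly(A) tail, and the sources used here do not say whether poly(A) RNA was selected. The 16-base histone stem-loop was searched by its consensus in the protein-coding transcripts of GENCODE release 29. It was found in 31 of the 71 clustered genes that have such a transcript, and in 82 of 19669 genes in all (0.417%). The other 40 clustered genes have no match in their annotated transcripts, which may stop short of the end of the mRNA. A missing match therefore does not show that the mRNA lacks a stem-loop. The forms carried by HIST2H2BE, HIST1H2BD, HIST1H4H, HIST1H4I and HIST1H2AG are the 5 found among clustered genes. That of H2AFX, a replacement gene, is added below them. Capitals mark the loop between the paired arms.
HIST2H2BE: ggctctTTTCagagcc
HIST1H2BD: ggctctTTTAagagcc
HIST1H4H: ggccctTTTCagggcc
HIST1H4I: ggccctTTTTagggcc
HIST1H2AG: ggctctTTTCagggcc
H2AFX: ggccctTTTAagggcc
The first form is shared by 17 clustered genes of the H2A, H2B and H3 types. All H4 genes with a stem-loop have one of the forms that begin with ggccct, as does H2AFX. In 22 of the 31 clustered genes the longest stem-loop transcript runs at least 100 bases past the stem-loop, and in 14 of these 22 its last 40 bases hold a signal for polyadenylation, which is AATAAA or its common variant ATTAAA. HIST2H2BE, for one, is annotated with 1729 bases after its stem-loop, HIST1H2AC with 1114 and HIST1H2AG with 1761.

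Library totals ran from 23087102 to 25867733 reads, so that a single read was worth 0.0384 to 0.0442 CPM (counts scaled to a common library size, adjusted by TMM) and a floor of 3 reads 0.115 to 0.133 CPM. Such limits cover counting error only. All 14 S-phase genes of a list (PCNA, MCM2 to MCM7, RRM2 and others) were lower under CU-T12-9, where 33.2% of all tested genes were, and their summed level went from 5101 ± 0.535 to 1229 ± 7.38 CPM (SD, n = 2 in each group). The myeloid and leukaemia markers FLT3, CD33, KIT, HOXA9, MEIS1, SPI1 and PTPRC were all expressed, at a summed 1041 to 1211 CPM. Of markers of other cell types, HBB (erythroid) and EPCAM (epithelial) had 0 reads in every library, CD3E (T cell) had 1 read in 1 library and 0 in the others, and COL1A1 (fibroblast) had 1 to 6 reads. Whether the S-phase fall bears on any histone result below was not tested. In such bulk RNA, fewer cells in S phase and less of these mRNAs per cell cannot be told apart.

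Under CU-T12-9 clustered histone genes had more reads in sum while the S-phase genes had fewer. The 89 clustered rows together held 54.9 and 57.2 CPM in the DMSO libraries and 181 and 192 CPM in the CU-T12-9 libraries, which is 3.33 times as much. The summed level of the 9 replacement genes was 1.14-fold lower, from 2511 and 2521 CPM to 2190 and 2232 CPM. H2AFZ alone fell by more CPM than this sum, from 533 and 518 to 145 and 173 CPM. Single replacement genes moved in both directions, with 4 of 9 called higher (44.4%) and 3 lower (33.3%). Of all genes tested, 32% were called higher and 33.2% lower. The clustered share of all histone reads was 2.14% and 2.22% under DMSO and 7.65% and 7.91% under CU-T12-9. These sums are values with no test, since 2 libraries against 2 cannot reach 0.05 by permutation. Reads traded between near-identical histone rows do not move these sums, but reads dropped for matching several rows would be missing from them. Whether any were dropped is unknown, so the sums and the clustered share cover only reads assigned to a row.

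**Figure D1:**
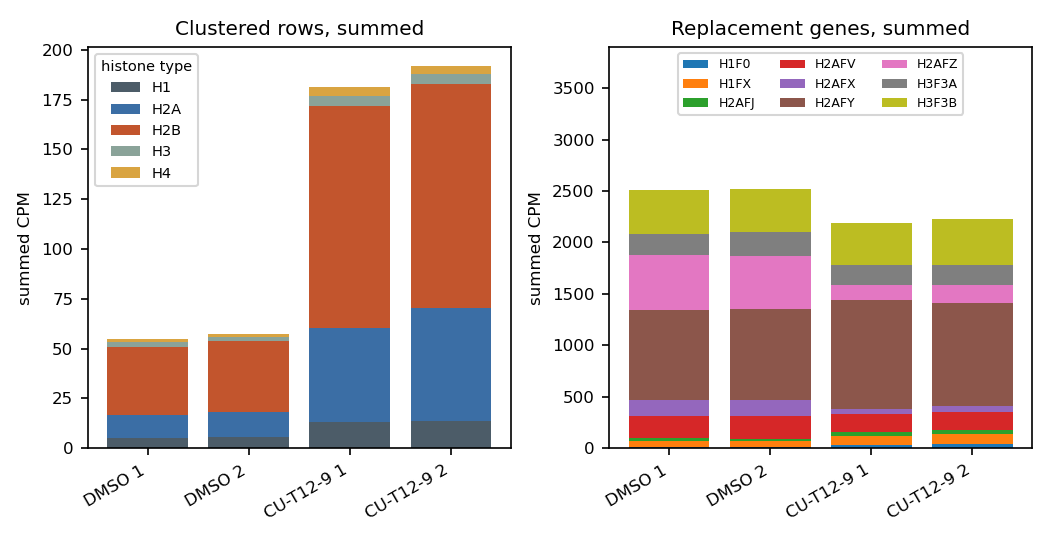
Summed CPM of the clustered rows (left, stacked by histone type) and of the replacement genes (right, stacked by gene) in each of the 4 libraries; the 2 vertical scales differ. The clustered sum lies between 54.9 and 57.2 under DMSO and between 181 and 192 under CU-T12-9, and on the right the H2AFZ segment shrinks.

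Of the 89 clustered rows, 24 had no read in any library, 42 had reads but too few to be tested, and 23 passed the expression filter. Among these 23, 17 were higher under CU-T12-9 and 2 lower, with 4 not called (edgeR quasi-likelihood test, Benjamini-Hochberg adjusted over 14018 genes). Of all genes tested, 65.2% were called, 32% as higher and 33.2% as lower, against 73.9% higher and 8.7% lower of the 23. A gene nearly unread in either group passes the filter only if it is higher in the other, so these shares lean toward changes. Here that took in rises: HIST1H3E, HIST1H2AI, HIST1H3D and HIST1H2BG had 3 to 8 reads over both DMSO libraries. The 2 genes called lower, HIST2H2AC and HIST1H2BH, kept 22 and 23 reads under CU-T12-9. Of the 42 untested rows with reads, none above 29 reads in all, 16 had more reads under CU-T12-9, 21 had fewer and 5 had equal numbers. The 66 untested rows together held 3.45 and 3.26 CPM under DMSO and 3.63 and 2.96 CPM under CU-T12-9. Over the 65 rows with any read, the median log2 fold change was 0.33, while over the 23 tested rows it was 1.5. The median of all tested genes was close to 0.

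**Figure D2:**
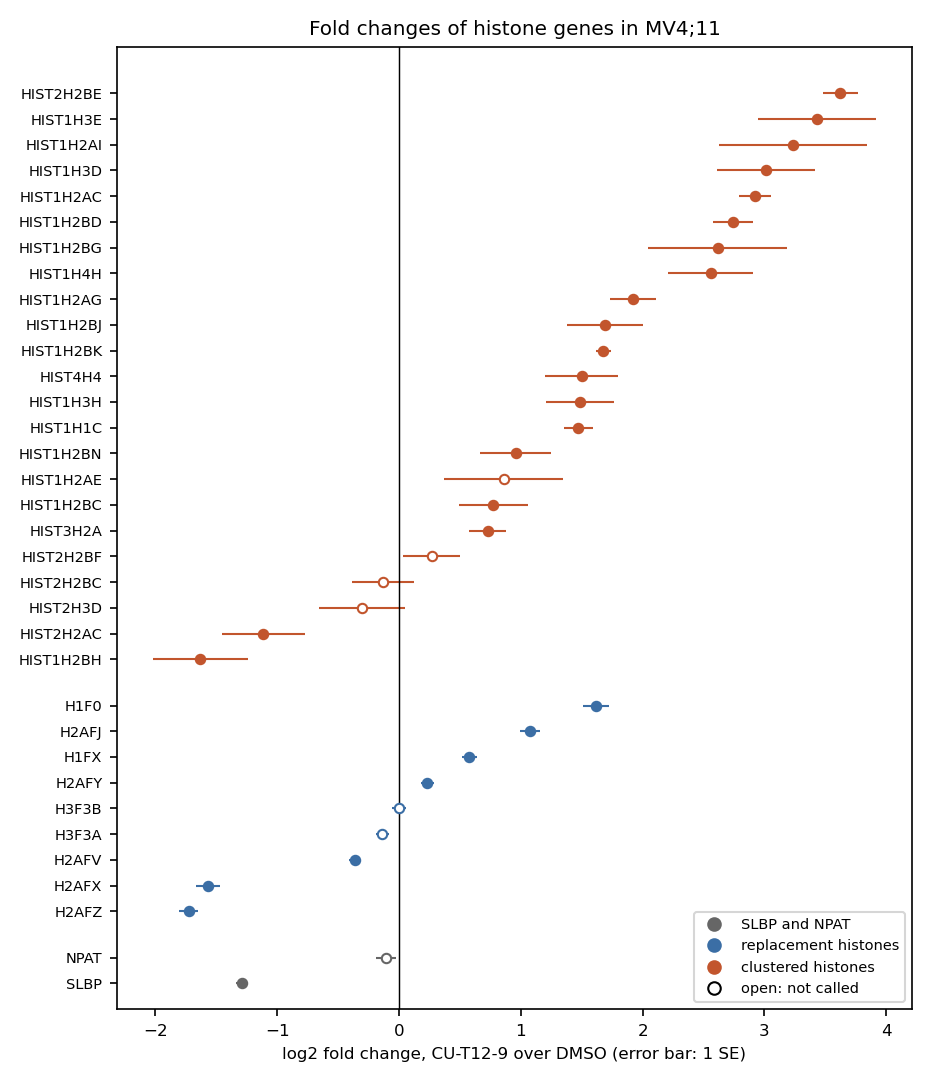
Log2 fold change of CU-T12-9 over DMSO for the 23 clustered genes, 9 replacement genes and SLBP and NPAT that were tested; bars are 1 SE and open symbols were not called. Clustered genes reach from -1.63 to 3.62, and replacement genes lie between -1.72 and 1.62.

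HIST2H2BE, an H2B gene of the HIST2 cluster, counted 37 and 33 reads with DMSO, then 419 and 378 with CU-T12-9. Both CU-T12-9 libraries stood far above both DMSO libraries, and the level of 1.4 ± 0.0299 CPM rose 12.3-fold to 17.3 ± 0.857 (log2 fold change 3.62, SE 0.14, edgeR adjusted p = 4.68e-08). HIST1H2AC, an H2A gene, had 128 and 119 reads and then 780 and 944. Its level of 4.94 ± 0.0393 CPM rose 7.59-fold to 37.5 ± 5.92 (log2 fold change 2.92, SE 0.13, edgeR adjusted p = 1.13e-07). HIST1H2BD, an H2B gene, had 35 and 34 reads and then 214 and 212, a 6.69-fold rise with no overlap of the groups. HIST1H4H, one of the many genes for the same H4 protein, had 6 and 10 reads and then 47 and 41. It rose 5.89-fold, and its low DMSO counts leave an SE of 0.35 on its log2 fold change of 2.56.

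HIST1H2BK, an H2B gene, supplied between 39.4% and 41.4% of all clustered reads in each library. Its CPM was 22.7 and 23.7 under DMSO and 73 and 75.6 under CU-T12-9, a 3.2-fold rise with a small error (log2 fold change 1.68, SE 0.06, edgeR adjusted p = 4.01e-08). The clustered sum did not rest on it: without HIST1H2BK the sum of the other 88 rows was 3.42 times as high. HIST1H1C, the linker histone gene with the most reads among clustered H1 genes, had 118 and 121 reads and then 305 and 306, and rose 2.77-fold. HIST1H2AG, an H2A gene, had 39 and 35 reads and then 121 and 137, which is 3.78-fold higher. HIST1H2BJ, its divergent H2B neighbour, had 11 and 16 reads and then 40 and 41 (3.23-fold higher), and HIST1H3H, an H3 gene, had 15 and 17 and then 42 and 41 (2.8-fold higher).

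The remaining 8 called rises were in HIST1H3E, HIST1H2AI, HIST1H3D, HIST1H2BG, HIST4H4, HIST1H2BN, HIST1H2BC and HIST3H2A. The first 4 of these were nearly silent under DMSO, with 4, 3, 8 and 6 reads over both libraries and 42, 28, 61 and 35 under CU-T12-9, so their fold changes carry SEs of 0.40 to 0.61. For HIST1H2AI the ratio of reads was 10.1 (exact 95% interval 3.13 to 52.1). HIST3H2A had the smallest called rise, from 94 and 91 reads to 134 and 148 (1.66-fold). Every histone type had risen members: 1 of 1 tested H1 gene, 4 of 6 H2A, 7 of 10 H2B, 3 of 4 H3 and 2 of 2 H4 genes, against 32% of all tested genes. These counts include the 4 genes nearly silent under DMSO, among them 2 of the 3 risen H3 genes. Summed over all rows of a type, H2A was 4.26 times as high, H2B 3.22, H1 2.6, H4 2.56 and H3 2.27 times. By cluster, 14 of 16 tested HIST1 genes were higher and 1 lower, while of the 5 tested HIST2 genes HIST2H2BE was higher and HIST2H2AC lower.

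**Figure D3:**
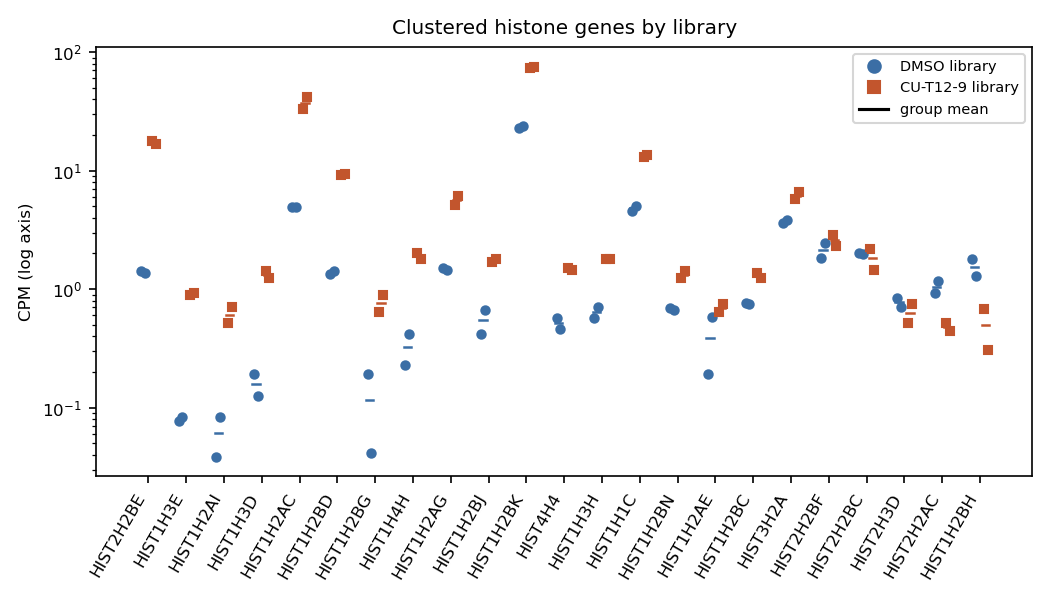
CPM on a log axis of the 23 tested clustered genes, 1 point per library, ordered by fold change; short lines are group means. HIST1H2BK has the highest counts in both groups, and HIST2H2AC and HIST1H2BH lie lower under CU-T12-9. The 17 risen genes show separate groups, as does HIST1H2AE, which was not called.

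HIST1H2BH, an H2B gene, fell 3.09-fold, from 47 and 31 reads under DMSO to 16 and 7 under CU-T12-9 (log2 fold change -1.63, SE 0.39, edgeR adjusted p = 0.00502). It was called whichever library was left out, with a log2 fold change of -2.28 without the first CU-T12-9 library and -1.18 without the second. HIST2H2AC, an H2A gene, had 24 and 28 reads and then 12 and 10, a 2.17-fold fall (log2 fold change -1.11, SE 0.34, edgeR adjusted p = 0.0175). The groups did not overlap in either gene, but the call of HIST2H2AC was lost with DESeq2 (adjusted p = 0.143), and in edgeR without the second DMSO library (adjusted p = 0.168) or the second of CU-T12-9 (adjusted p = 0.0568). The 4 genes not called were HIST2H2BF, the pseudogene HIST2H2BC, HIST2H3D and HIST1H2AE. HIST2H2BF had 48, 59, 67 and 52 reads, with overlapping groups (log2 fold change 0.27, SE 0.23), and HIST2H2BC 53, 47, 51 and 33. Rows of near-identical genes are uncertain one by one. HIST2H2AA3 and HIST2H2AA4, for instance, had 0 reads and 2 reads in all 4 libraries together.

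The 7 clustered genes listed for known polyadenylated mRNA (HIST1H1C, HIST1H2AC, HIST1H2BC, HIST1H2BD, HIST1H2BJ, HIST1H2BK and HIST2H2BE) were higher in 7 of 7 cases, against 32% of all tested genes, with a median log2 fold change of 1.69. The count was 6 with DESeq2, against a fold of 1.5 and without each of the 4 libraries in turn. Of the 16 other tested clustered genes 10 were higher and 2 lower, with a median of 1.22. Their sums set the 2 sets further apart. The 7 genes went from 36.1 and 38 CPM to 150 and 160 CPM, 4.18 times as much. The other 82 rows went from 18.8 and 19.3 to 31.9 and 31.8 CPM, 1.68 times as much. The 7 genes were chosen with earlier results of these data known, so the split is a description. The genes were also grouped by GENCODE's own annotation. That annotation uses no read of this study, but the grouping was chosen after values were seen, so it too is a description. Of tested clustered genes with a polyadenylation signal in the last 40 bases of any protein-coding transcript, 11 of 13 were higher and 1 lower. Of those without one, 6 of 9 were higher and 1 lower, against 32% and 33.2% of all tested genes. Summed over all rows, the first set was 4.43 times and the second 2.85 times as high. Grouped instead by where the stem-loop transcript ends, the order was another one. The 9 rows that end within 100 bases of the stem-loop were 5.12 times as high in sum (2 of 3 tested genes higher), the 22 that run on 4.19 times (10 of 12 higher, 1 lower) and the 40 with no annotated stem-loop 2.9 times (5 of 7 higher, 1 lower). Most reads of the first of these groups were those of HIST1H2BD, 69 under DMSO and 426 under CU-T12-9. HIST1H2BD is itself among the 7 listed genes, and its stem-loop transcript holds a polyadenylation signal in its last 40 bases. The other tested genes of that group were HIST1H2AI, with 3 and then 28 reads, and HIST1H2AE, with 19 and 32 (not called). Most reads of the set without a polyadenylation signal were those of HIST1H2BK and HIST1H1C, both among the 7 genes listed for known polyadenylated mRNA. HIST1H2BK went from 22.7 and 23.7 to 73 and 75.6 CPM and HIST1H1C from 4.53 and 5.05 to 13 and 13.5 CPM. The whole set held 32.8 and 34.4 CPM under DMSO and 94.4 and 97.3 CPM under CU-T12-9. Release 29 holds HIST1H2BK only as a transcript with no stem-loop. HIST1H2BH, which fell, is annotated with 1640 bases past its stem-loop and with a polyadenylation signal.

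Transcripts that carry no poly(A) tail whatever the cell state were also read. Of 18 such RNAs listed (RN7SK, RN7SL1, RMRP, RPPH1 and others), 7 were tested, of which RN7SK, RN7SL2 and SNORD3A were higher (42.9%, against 32% of all tested genes), and all 7 log2 fold changes were above 0 (0.11 to 0.87, median 0.67). The count was 5 without the first DMSO or the second CU-T12-9 library and 0 against a fold of 1.5. Their summed level was 36.8 and 26.8 CPM under DMSO and 48.3 and 45.4 CPM under CU-T12-9, 1.47 times as much, where the clustered histones had 3.33 times as much. Their part in the clustered result was not tested.

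Histone genes of the H2A and H2B types often lie head to head around a shared promoter. In GENCODE 16 pairs of neighbouring clustered rows face away from each other with less than 1000 bases between them, and in 4 pairs both genes were tested. In HIST1H2BC with HIST1H2AC and in HIST1H2BJ with HIST1H2AG both genes were higher. In HIST1H2BG with HIST1H2AE the first was higher and the second not called. Where 1 partner was too low to test, HIST1H2BK went from 1159 to 3416 reads with HIST1H2AH at 6 and 8, and HIST1H2AI from 3 to 28 reads with HIST1H2BL at 9 and 2. HIST2H2BE and HIST2H2AC were called in opposite directions: summed over each pair of libraries, HIST2H2BE went from 70 to 797 reads and HIST2H2AC from 52 to 22. The stretch between their RefSeq starts is shown because it is the promoter of both genes. It lies at chr1:149886683-149886917 (GRCh38.p14, plus strand, reading toward HIST2H2AC), with matches to the TATA box (letters TATAAA), to the box of letters CCAAT and to the octamer (letters ATTTGCAT) in capitals on either strand.
HIST2H2BE and HIST2H2AC: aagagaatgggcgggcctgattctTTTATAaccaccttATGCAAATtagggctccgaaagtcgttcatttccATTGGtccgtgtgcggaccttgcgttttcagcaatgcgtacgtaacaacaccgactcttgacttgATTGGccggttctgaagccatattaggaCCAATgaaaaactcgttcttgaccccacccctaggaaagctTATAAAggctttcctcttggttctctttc
These 235 bases hold 1 octamer, 3 CCAAT boxes and 2 TATAAA matches, 1 near each start. The octamer, a motif that POU2F1 is known to bind, lies on the HIST2H2BE side.

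**Figure D4:**
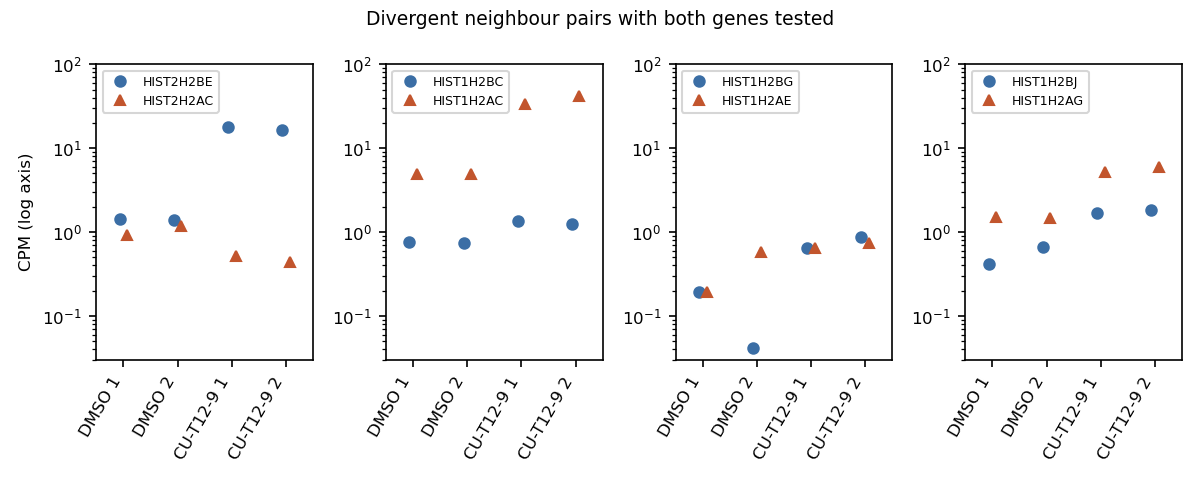
CPM on a log axis in each of the 4 libraries for the 4 head-to-head pairs with both genes tested; circles and triangles are the partners. HIST2H2BE and HIST2H2AC part under CU-T12-9, to 17.3 and 0.478 CPM on average, while HIST1H2BJ and HIST1H2AG move up together.

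Promoters of 61 clustered and 8 replacement genes were matched in RefSeq (GRCh38.p14, 250 bases before the start to 50 after). The octamer ATTTGCAT, on either strand, was in 42.6% of clustered promoters against 1.8% of all 27305 promoters, with 11 of 14 H2A and 14 of 18 H2B promoters holding it. CCAAT was in 83.6% of clustered promoters against 35.7% of all, TATAAA in 65.6% against 12%, and TTTNNCGC, a core of E2F sites, in 27.9% against 6.9%. By call, the octamer was in 8 of 17 risen genes, in both that fell and in 2 of 3 not called with a promoter in the table. The NF-kB consensus, searched by name on both strands, was in 3 of 61 clustered promoters and in 10.8% of all, and in 0 of the 17 risen ones. A match is a run of letters and not a bound site. HIST1H2BK and H2AFZ are shown as the clustered gene with the most reads and the replacement gene with the largest fall, with the same 3 motifs in capitals, at chr6:27146859-27147108 and chr4:99950276-99950525 (GRCh38.p14, both on the minus strand and read 5′ to 3′ up to the start).
HIST1H2BK: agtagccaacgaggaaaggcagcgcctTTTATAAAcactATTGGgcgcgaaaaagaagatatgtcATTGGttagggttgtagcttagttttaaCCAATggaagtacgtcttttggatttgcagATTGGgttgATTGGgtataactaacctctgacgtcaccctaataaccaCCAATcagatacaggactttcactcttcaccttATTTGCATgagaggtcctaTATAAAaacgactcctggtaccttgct
H2AFZ: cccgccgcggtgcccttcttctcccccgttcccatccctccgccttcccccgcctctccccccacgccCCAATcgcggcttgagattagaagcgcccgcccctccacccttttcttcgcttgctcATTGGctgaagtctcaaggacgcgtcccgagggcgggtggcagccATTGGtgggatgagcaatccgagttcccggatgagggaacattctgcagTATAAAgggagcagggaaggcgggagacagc
The HIST1H2BK stretch holds an octamer, 6 CCAAT boxes and 3 TATAAA matches, of which 2 overlap on opposite strands. That of H2AFZ holds no octamer, 3 CCAAT boxes and 1 TATAAA.

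The 9 replacement genes were all tested and moved in both directions, 4 higher (44.4%), 3 lower (33.3%) and 2 not called, beside 32% higher and 33.2% lower in the whole table. H2AFZ, which encodes the H2A.Z variant found at promoters, had 533 and 518 CPM under DMSO and 145 and 173 CPM under CU-T12-9. It fell 3.3-fold (log2 fold change -1.72, SE 0.08, edgeR adjusted p = 1.13e-07). H2AFX, the H2A variant phosphorylated at DNA breaks, had 154 and 157 CPM and then 46.1 and 59.2, a 2.96-fold fall (log2 fold change -1.57, SE 0.10, edgeR adjusted p = 9.36e-07). It is the replacement gene whose transcript holds a stem-loop, with 1044 annotated bases after it. H2AFV, the second gene for H2A.Z, fell much less, from 219 ± 1.55 to 171 ± 0.0715 CPM (1.28-fold), a change under the 1.5-fold limit of a stricter test.

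H1F0, a linker histone gene typical of cells that have left the cycle, had 10.3 and 11.9 CPM under DMSO and 31.4 and 36.6 CPM under CU-T12-9. It rose 3.06-fold (log2 fold change 1.62, SE 0.11, edgeR adjusted p = 1.5e-06). H2AFJ, an H2A variant gene, rose 2.11-fold, from 20.5 ± 1.81 to 43.3 ± 2.24 CPM. H1FX, the other linker histone here, rose 1.49-fold, from 62.4 ± 0.671 to 93.3 ± 6.32 CPM. H2AFY, which encodes macroH2A, rose 1.18-fold, from 871 and 886 CPM to 1066 and 1000 CPM. That call was lost without the first DMSO library (edgeR adjusted p = 0.0568).

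H3F3A and H3F3B encode the same H3 variant. H3F3B had 429 and 422 CPM under DMSO and 404 and 448 CPM under CU-T12-9, with the DMSO values inside the CU-T12-9 range (log2 fold change 0.00, SE 0.06). H3F3A had 209 and 226 CPM and then 195 and 201 CPM, groups that do not overlap but that missed the threshold (log2 fold change -0.14, SE 0.06, edgeR adjusted p = 0.056). It passed without the second CU-T12-9 library (edgeR adjusted p = 5.90e-04) with library size alone as scaling (adjusted p = 0.0288) and with no expression filter (adjusted p = 0.0402). H3F3B in turn was higher without the first CU-T12-9 library (log2 fold change 0.11, edgeR adjusted p = 0.0178). Both genes have processed pseudogenes that can take reads.

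**Figure D5:**
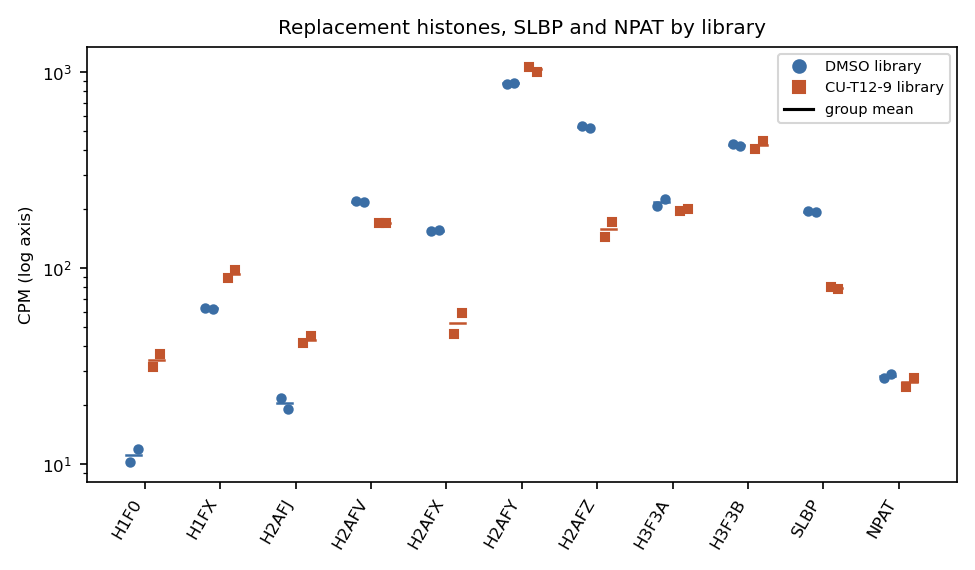
CPM on a log axis of the 9 replacement genes, SLBP and NPAT, 1 point per library; short lines are group means. H2AFZ, H2AFX and SLBP lie lower under CU-T12-9 and H1F0 and H2AFJ higher, while the H3F3B and NPAT groups overlap.

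SLBP counted 5092 and 4640 reads with DMSO, then 1886 and 1779 with CU-T12-9. Its level of 195 ± 1.21 CPM fell 2.44-fold to 79.6 ± 1.43 (log2 fold change -1.29, SE 0.05, edgeR adjusted p = 4.81e-08). NPAT had 719 and 693 reads and then 582 and 625, with overlapping CPM (log2 fold change -0.11, SE 0.08, edgeR adjusted p = 0.272). Leaving out the second CU-T12-9 library made it pass as lower (adjusted p = 0.0341). SLBP thus moved against the sum of the clustered genes. Most of that sum came from the 7 genes listed for known polyadenylated mRNA, 37 of 56.1 CPM under DMSO and 155 of 187 CPM under CU-T12-9. That list was chosen with earlier results of these data known. The other 82 rows also held more in sum, 19 CPM under DMSO and 31.9 CPM under CU-T12-9. Whether the counted reads stem from mRNA that SLBP binds was not tested.

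A list of 18 other genes for histone transcription and mRNA processing includes the cell cycle genes CCNE1, CCNE2 and CDK2, which carry out neither step themselves. Of the 18, 14 were lower (77.8%, against 33.2% of all tested genes) and 3 higher (16.7%, against 32%). The median log2 fold change of the list was -0.37. Without the first DMSO library 1 was higher and 10 lower, without the second 2 and 11, and against a fold of 1.5 there were 0 higher and 5 lower. The largest falls were in the cyclins and the kinase that act on NPAT, with CCNE2 4.97-fold, CDK2 3.65-fold and CCNE1 2.62-fold lower. CASP8AP2 (FLASH), which holds the histone cleavage complex, fell 2.3-fold. The U7 particle components LSM11 and LSM10, which direct cleavage, went from 18.6 ± 0.789 to 10 ± 1.52 CPM and from 37 ± 0.799 to 31.6 ± 0.0301 CPM, both called lower. The exonuclease gene ERI1, which trims the stem-loop end, fell 1.7-fold. The 3 genes called higher with all libraries were HINFP, an activator of H4 genes (log2 fold change 0.36), POU2F1, which binds the octamer (0.31), and the scaffold SYMPK (0.19). CPSF2 was not called, at 168 ± 2.1 and 168 ± 1.03 CPM.

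Among 23 histone chaperones and exchange factors 13 were lower (56.5%, against 33.2% of all) and 4 higher (17.4%, against 32%), with a median log2 fold change of -0.58. Without the first CU-T12-9 library 7 were higher, and against a fold of 1.5 there were 0. CHAF1B, ASF1B and HJURP fell most, 5.35-fold, 4.96-fold and 4.83-fold, followed by CHAF1A at 3.18-fold. CHAF1A and CHAF1B form the CAF-1 complex, which with ASF1B lays down new H3 and H4 behind the replication fork, and HJURP loads the centromeric H3 variant. NASP and HAT1, which handle new H3 and H4, fell 2.77-fold and 2.7-fold. Of genes for replication-independent H3 placement, HIRA fell 1.26-fold. UBN1 (log2 fold change 0.07), CABIN1 (0.03), ASF1A (0.09) and DAXX (-0.09) were not called, while UBN2 (0.49) and ATRX (0.45) rose. Of factors that place or remove H2A.Z, YEATS4 and ANP32E were lower (log2 fold change -0.98 and -0.58), SRCAP was higher (0.37) and VPS72 was not called (-0.17, edgeR adjusted p = 0.0581).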

How the data were processed

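The authors deposited 1 table of raw read counts, a row per gene symbol and a column for each of 4 libraries. Per the submitters' processing notes, the tools were FastQC 0.11.7, TopHat2 and featureCounts 1.5.2, with GRCh37 as the build. The sources used here do not give the annotation, the strand setting or what was done with multi-mapped reads. Counts were tested with edgeR 4.0.16 in R 4.3.3 by quasi-likelihood F-test (group as the only term, filterByExpr, TMM, Benjamini-Hochberg over 14018 genes, threshold 0.05). The test was also run on simulated counts with few genes changed and a single dispersion. That setting is unlike these data, where 65.2% of tested genes were called. SE is the fold change on the log2 scale over the root of F. CPM uses reads in tested genes times the TMM factor. The chi-square per degree of freedom between replicates was 2.42 (DMSO) and 7.03 (CU-T12-9), more than sampling noise, so no library was taken for a copy of another; whether they are separate cultures is not stated. Alternatives used DESeq2 1.42.0 and limma 3.58.1 (voom), other scalings and filters, a fold limit of 1.5, a replicate term and each library left out.

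Named were the replacement genes, SLBP and NPAT, and, of tested clustered genes, those called lower, the 5 with the most reads and, among those with a mean of at least 1 CPM, the 8 largest rises and all not called. Each other list gave its 4 largest called changes, or all called where there were fewer. The S-phase list is an exception, and its named genes are the first ones listed. Genes named beyond these were chosen after their values were seen, as was the grouping by annotated transcripts. The members and lists were chosen with earlier results of these data known. One listed cell type marker is not reported here. Stem-loops are from GENCODE release 29 (a build other than the files'), matched by symbol, and promoters from RefSeq (GRCh38.p14), matched from GENCODE's Ensembl IDs to current symbols.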

Additional observations from a re-analysis of the deposited data

How the results depend on the processing

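Over the alternatives, the log2 fold changes of the named histone genes, SLBP and NPAT kept their direction and side of the threshold in 293 cases, lost a call in 8, gained one in 5 and reversed in 5. Against a fold of 1.5, 1761 genes were higher and 1688 lower, and 2 replacement genes were higher, H1F0 and H2AFJ. The 17 clustered genes higher became 15 with DESeq2, 14 against a fold of 1.5 and with a filter of 1 CPM in 2 libraries, and 15 to 16 when a library was left out. The 2 clustered genes lower became 1 with a filter of 1 CPM in 2 libraries, with DESeq2 and against a fold of 1.5, and 1 to 2 when a library was left out, HIST2H2AC being the gene lost or left untested. The clustered median was 0.33 with no filter (more genes of few reads enter) and 1.38 to 1.66 when a library was left out, and that of the 7 polyadenylated genes 1.64 to 2.04. The replacement median, that of H3F3B alone, reversed to -0.013 with library size alone and to -0.0089 with no filter, and ranged from -0.074 to 0.11 without a library. The same held for H3F3B itself, at -0.013 and -0.0089, at -0.02 without the second DMSO library and at -0.074 without the second CU-T12-9 library. HIST2H2BC ranged from -0.42 to 0.12, reversing without the second CU-T12-9 library. The processing list median was -0.36 with RLE factors and with DESeq2, -0.34 with upper quartile scaling, -0.39 with library size alone and -0.38 with no filter. The S-phase median was -2.25 with upper quartile scaling. The summed replacement log2 ratio was -0.16 with upper quartile scaling and -0.20 with library size alone, against -0.19. The rise in the clustered share of histone reads was 3.55 percentage points without HIST1H2BK, against 5.6.

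When a library was left out, the processing list median ranged from -0.38 to -0.34, the chaperone median from -0.66 to -0.48, the S-phase median from -2.30 to -2.25, that of the RNAs without poly(A) tails from 0.45 to 0.91, the log2 ratio of the clustered sums from 1.69 to 1.77 and of the replacement sums from -0.20 to -0.17, and the clustered share difference from 5.47 to 5.73 percentage points. Replacement genes called higher numbered 3 to 5 and lower 3 to 4, and NPAT ranged from -0.18 (called lower) to -0.0010. With 1 library left in a group, its spread is taken from the other group.

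Equal replicate numbers share only a number: the correlation of their deviations was 0.00795. With the number as a replicate block, 17 clustered genes were higher and 2 lower, with a median of 1.5, and 4488 and 4655 of all genes, so no call of the clustered or replacement counts moved.

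With 2 libraries a group, depth limits the single clustered genes: a read is worth at least 0.0384 CPM, and the 66 untested rows allow no call.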
